A study of Mus musculus with 4 samples.

Results

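The Hox gene clusters of the mouse were mapped for CTCF regions in cardiac myocytes, the contractile cells of the heart, taken from left ventricles of the C57BL/6 strain. Of 2 chromatin immunoprecipitation and sequencing (ChIP-seq) libraries, 1 came from hearts labelled CTCF knockout and 1 from control hearts, and each was made from a pool of 3 hearts. The labels do not give the promoter or Cre line behind the deletion, the alleles that controls may share, or the age of the mice, and no deposited value checks the labelled deletion or the labelled cell type. The first library is therefore called by its label throughout. All 39 protein-coding genes named Hoxa, Hoxb, Hoxc or Hoxd with a number were found in 4 clusters (mm10). Regions were taken from the authors' peak lists if their summit lay within 50 kb of the outermost Hox gene spans of a cluster. This gave 19 of the 16128 regions listed for the library labelled CTCF knockout and 28 of the 20043 regions listed for the control.

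Hox genes encode homeodomain transcription factors that set position along the body axis and the limbs. Genes of a cluster lie in a row in the order of their paralogue numbers. They are transcribed in 1 direction, from the Hox13 end to the low-numbered end. During development they are switched on in the order of their numbers, with the low numbers first and toward the head. CTCF is a zinc-finger protein that stops cohesin-extruded chromatin loops. In mouse embryonic stem cells and motor neurons, CTCF sites between Hoxa5, Hoxa6, Hoxa7 and Hoxa9 are known to separate active from Polycomb-repressed parts of the cluster, and genes of the low-numbered groups are used in progenitors of the embryonic outflow tract and atria.

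Sequence was at hand for 300-base promoter windows only (250 bases before to 50 after the start, RefSeq, GRCm38.p6), and 22 of the 39 Hox genes had such a window. Among the promoters at the clusters that had such a window, CTCF regions touched those of Hoxa5 and Hoxd3os1. Promoters without a window were not checked, and regions close to the Hoxb5 and Hoxc5 spans are given below. Hoxa5 is a gene that patterns the lung and trunk, and Hoxd3os1 is a long non-coding RNA gene antisense to Hoxd3. The shared stretches are shown because the first holds the only region of the clusters listed for the library labelled CTCF knockout alone, and the second belongs to the region with the highest control pileup. Capitals mark a match to AGNNGGCG, the short core searched on both strands.

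Hoxa5, chr6:52204590-52204726, minus strand: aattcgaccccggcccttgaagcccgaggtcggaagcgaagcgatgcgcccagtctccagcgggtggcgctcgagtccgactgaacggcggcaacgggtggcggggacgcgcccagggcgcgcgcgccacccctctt
Hoxd3os1, chr2:74716081-74716130, minus strand: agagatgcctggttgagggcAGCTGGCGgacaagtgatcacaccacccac

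The Hoxa5 stretch, 72.3% G and C, is the whole region of 137 bp that lies just upstream of the start of Hoxa5, and it held no match to any of the 3 motifs searched. The Hoxd3os1 stretch is the part of the control region that reached into this promoter window, and its summit, at 74715939, lay outside the printed bases. A longer CTCF core, spelled CC, any 3 bases, AG, any 2 bases and GGC, shares all but the last base of the short core. It was found, again on both strands, in 4 of the 22 Hox genes with a window. The matches were CCCTGAGGTGGC at Hoxa11, GCCTGCTCAGGG at the second promoter of Hoxd11, GCCGGCTGCGGG at Hoxd3 and GCCCACTGGAGG at Hoxc4, the last 3 in the reverse direction. Neither list had a region on these 4 promoters. Over all 32851 promoter windows 8.61% held this core, and of the 1848 windows touched by a control region 32.8% held it. The short core was found at 7 of the 22 Hox genes and in 24.0% of all windows, and the longer core with an A fixed after its opening CC and AG added at its end was found at 0 of 22 and in 0.286%.

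The whole lists set the scale for the clusters. The lists hold no read depth, but the number of reads stacked at each summit (the pileup) could be recovered from the authors' fold enrichment and −log10 p. The lowest local background, a measure of depth times fragment length, was 0.851 reads in the library labelled CTCF knockout and 1.01 reads in the control, a ratio of 0.846. With 1 library per genotype there is no replicate and no test between genotypes. Every 95% interval below covers counting error only, and overlap of intervals is not a test of whether values differ.

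Of the 28 control regions at the Hox clusters, 18 overlapped a region of the library labelled CTCF knockout by at least 1 bp (64.3%, Wilson 95% interval 45.8 to 79.3). Over the whole control list 69.0% did, a share within the interval of the clusters. Requiring −log10 q ≥ 5 in both lists gave 54.2% at the clusters (interval 35.1 to 72.1), against 71.6% over the list. The other 10 (against 31.0% of the whole list) were called in the control alone, which says only that no region was listed there in the other library. Of the 19 regions listed at the clusters for the library labelled CTCF knockout, 1 had no control region (5.26%, interval 0.935 to 24.6), against 14.2% over its whole list. The counts by cluster were small. Control regions called in both libraries numbered 4 of 7 at Hoxa (57.1%, interval 25.0 to 84.2), 10 of 12 at Hoxb (83.3%, 55.2 to 95.3), 2 of 2 at Hoxc (34.2 to 100%) and 2 of 7 at Hoxd (28.6%, 8.22 to 64.1). These intervals overlap each other, and each covers the 69.0% of the whole list except that of Hoxd, whose upper bound lies below it. Without Hoxd, 16 of 21 were called in both libraries (76.2%, interval 54.9 to 89.4). Leaving out the cluster with the lowest share could only raise the share of the rest.

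**Figure D1:**
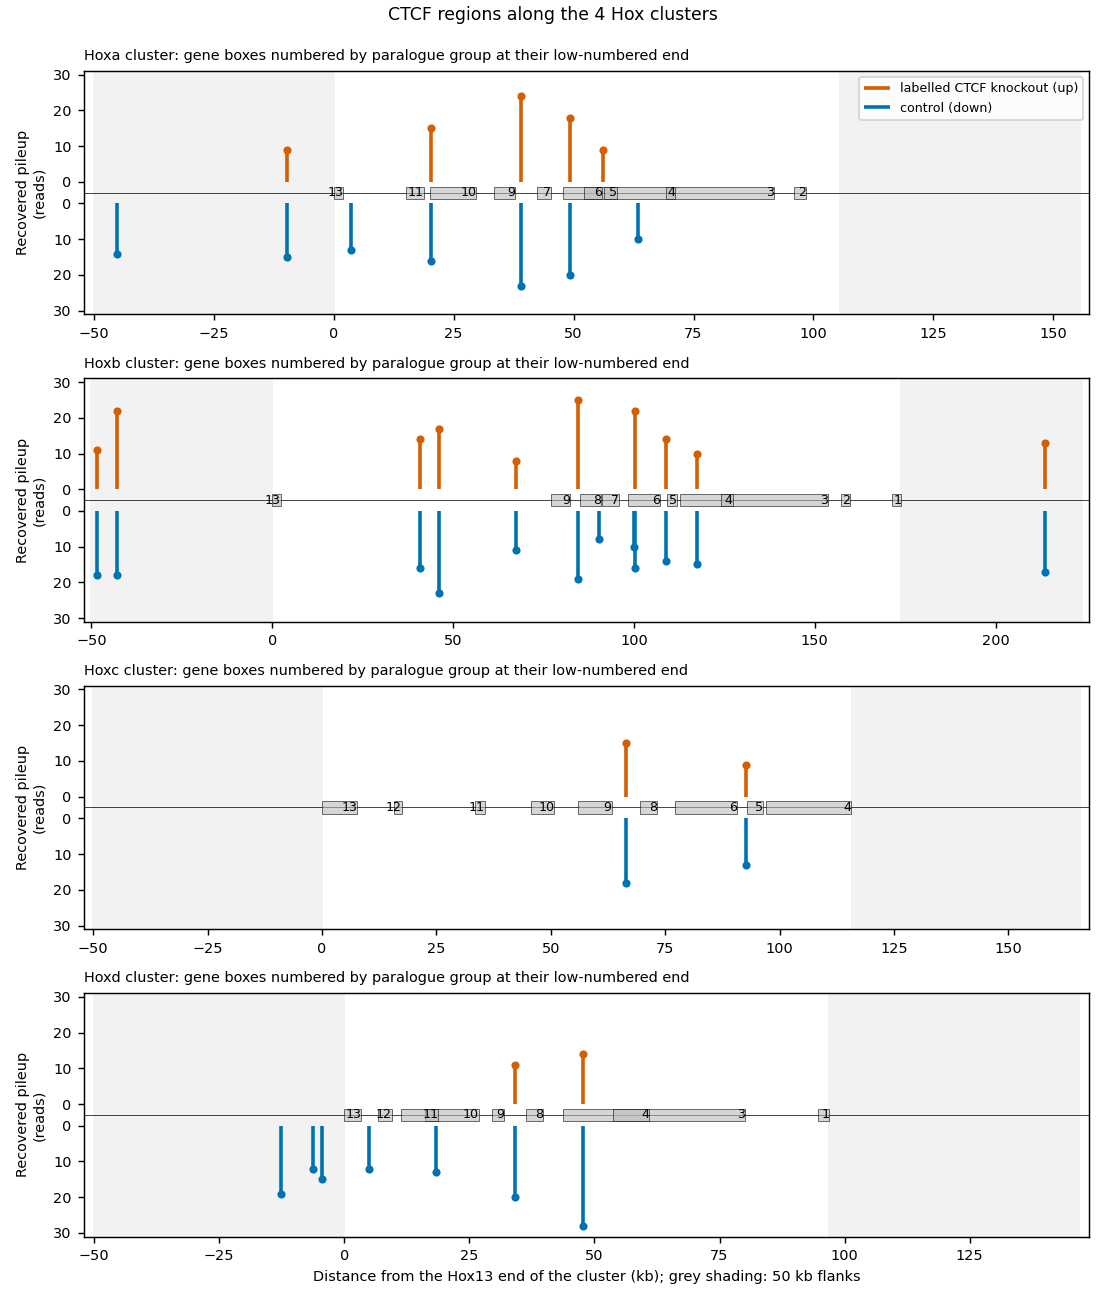
Recovered pileup at the summit (reads, y axis) of every CTCF region against distance from the Hox13 end of each cluster (kb, x axis), with the library labelled CTCF knockout drawn upward, the control drawn downward, grey boxes for the genes reported, numbered by paralogue group, and shaded 50 kb flanks. At Hoxd 2 regions are drawn upward and 7 downward, and at Hoxb 10 and 12. The low-numbered end of the span is empty in both libraries at Hoxb and Hoxd, and so is the part of Hoxa around Hoxa2.

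At Hoxd the control regions fell into a run called in the control alone, from Evx2 to Hoxd11, and a pair called in both libraries, from Hoxd9 to Hoxd3. The 5 regions of the run had no counterpart in the library labelled CTCF knockout. The first lay within Evx2, the even-skipped homeobox gene that neighbours Hoxd13 (chromosome 2, 74655446 to 74655653), and had a control pileup of 19 reads (exact 95% Poisson interval 11.4 to 29.7) and a control fold enrichment of 9.74. The next lay within the long non-coding gene Gm31790, between Evx2 and Hoxd13 (74661865 to 74662164 and 74663672 to 74663840), with control pileups of 12 and 15 reads. Thus 3 control regions, and none of the library labelled CTCF knockout, flanked the Hox13 end of the cluster, and neither list had a region in the flank beyond Hoxd1.

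Inside the cluster, a control region lay between Hoxd13, needed for digit formation, and Hoxd12 (74673015 to 74673288), with a control pileup of 12 reads (6.20 to 21.0). Another lay in the overlap of the Hoxd11 and Hoxd10 spans (74686363 to 74686534), with a control pileup of 13 reads (6.92 to 22.2). Both were called in the control alone. Hoxd13, Hoxd12 and Hoxd11, genes of forearm, wrist and digit patterning, thus had control regions within 10 kb of which none was called in the library labelled CTCF knockout.

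The region between Hoxd9 and Hoxd8, 2.17 kb from Hoxd9, was called in both libraries, with a pileup of 11 reads (5.49 to 19.7) in the library labelled CTCF knockout (74702321 to 74702457) and 20 reads (12.2 to 30.9) in the control (74702198 to 74702481). The region within Hoxd3, which patterns the upper neck vertebrae, had 14 reads (7.65 to 23.5) in the library labelled CTCF knockout (74715882 to 74716058) and 28 reads (18.6 to 40.5) in the control (74715815 to 74716130). This was the highest control pileup of all 4 clusters. The ratios of pileup, library labelled CTCF knockout over control, were 0.55 and 0.50, the lowest of the 18 shared pairs at the Hox clusters. Of all 13832 shared pairs of the series, 6.11% and 3.54% had ratios this low or lower, and the median was 0.867. The 13832 pairs were not matched for control pileup. No region listed for the library labelled CTCF knockout had under 6 reads, so pairs with few control reads cannot reach such ratios. Summed over both Hoxd pairs the pileup was 25 reads (16.2 to 36.9) in the library labelled CTCF knockout and 48 reads (35.4 to 63.6) in the control. These intervals overlap between 35.4 and 36.9 reads. The pileups were not scaled for the background ratio of 0.846 given above, and these 2 pairs are those with the lowest ratios. Counting only summits within the outermost Hox gene spans, 2 of 4 Hoxd control regions were called in both libraries. Requiring −log10 q ≥ 5, or a reciprocal overlap of at least 50%, left 1 of 7.

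Of the 9 control regions within the outermost Hoxb spans, 6 lay within 32.8 kb between Hoxb9 and Hoxb4. Among these 6, 4 were called in both libraries. Between Hoxb9 and Hoxb8, 0.417 kb from the Hoxb8 span, a region had 25 reads (16.2 to 36.9) in the library labelled CTCF knockout (chromosome 11, 96278861 to 96279076) and 19 reads (11.4 to 29.7) in the control (96278855 to 96279111). Its pileup was the highest at the Hox clusters in the library labelled CTCF knockout. A region within Hoxb6 had 22 reads (13.8 to 33.3) in the library labelled CTCF knockout (96294553 to 96294866) and 16 reads (9.15 to 26.0) in the control (96294599 to 96294935). In both of these the library labelled CTCF knockout had the higher pileup, with intervals that overlap.

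Just upstream of the Hoxb5 span a region had 14 reads in the library labelled CTCF knockout (96303162 to 96303378) and 14 in the control (96303149 to 96303325). Within Hoxb3, between Hoxb5 and Hoxb4, a gene used in blood stem cells, a region had 10 reads in the library labelled CTCF knockout (96311688 to 96311826) and 15 in the control (96311657 to 96311982). The Hoxb regions called in the control alone had the lowest control pileups of the cluster, 8 reads within Hoxb8 (96284532 to 96284797) and 10 reads within Hoxb6 (96294376 to 96294520). The summit of the second lay 0.282 kb from that of the shared Hoxb6 region, so it was part of a close pair of control regions.

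The long interval between Hoxb13 and Hoxb9, where the mouse cluster has no protein-coding Hox gene, held 3 regions called in both libraries. Their pileups were 14, 17 and 8 reads in the library labelled CTCF knockout (96235007 to 96235194, 96240279 to 96240498 and 96261706 to 96261842), against 16, 23 and 11 reads in the control (96234809 to 96235235, 96240286 to 96240494 and 96261611 to 96261798). The control values were thus the higher in all 3, within overlapping intervals. In the flanks, 2 regions within Ttll6, a tubulin polyglutamylase gene beyond Hoxb13, had 11 and 22 reads in the library labelled CTCF knockout and 18 and 18 reads in the control. The second lay on a raised local background of 4.47 reads in the library labelled CTCF knockout and 4.48 reads in the control. Beyond Hoxb1, at 39.7 kb, a region had 13 reads in the library labelled CTCF knockout and 17 reads in the control.

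At Hoxa the strongest regions lay in the middle of the cluster and were called in both libraries. Between Hoxa7 and Hoxa9, a gene of blood progenitors and the forelimb, a region had 24 reads (15.4 to 35.7) in the library labelled CTCF knockout (chromosome 6, 52221695 to 52221956) and 23 reads (14.6 to 34.5) in the control (52221669 to 52221920). Its −log10 p ranked at percentile 89.5 of the list of the library labelled CTCF knockout, the highest rank of any Hox cluster region there. Between Hoxa6 and Hoxa7, inside the long span of Hoxa3, a region had 18 reads in the library labelled CTCF knockout (52211544 to 52211869) and 20 in the control (52211634 to 52211904). Within Hoxa10, a gene of the uterus and hindlimb, a region had 15 reads in the library labelled CTCF knockout (52240344 to 52240620) and 16 in the control (52240266 to 52240604). These 3 pairs of values differed by at most 2 reads.

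The only region listed for the library labelled CTCF knockout alone was that at the Hoxa5 promoter shown above, between Hoxa5 (0.059 kb away) and Hoxa6 (0.212 kb away). It was also among the weakest, with 9 reads (4.12 to 17.1), a fold enrichment of 4.81 and a −log10 p at percentile 7.58 of its list. Called in the control alone were a region between Hoxa4 and Hoxa5 (52197408 to 52197544, 10 reads) and one between Hoxa11 and Hoxa13, genes of the distal limb and the urogenital tract (52257063 to 52257337, 13 reads). In the flank beyond Hoxa13, a region 9.75 kb from that gene and beyond Hottip, a long non-coding gene known to activate the Hox13 end, had 9 reads (4.12 to 17.1) in the library labelled CTCF knockout (52270637 to 52270961) and 15 reads (8.40 to 24.7) in the control (52270412 to 52270973). A region 45.2 kb from Hoxa13 and 7.42 kb from Evx1, the other even-skipped homeobox gene, was called in the control alone (52305970 to 52306319, 14 reads).

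Hoxc had the fewest regions, and both control regions were called in both libraries. Between Hoxc9 and Hoxc8, genes of the thorax, the pileup was 15 reads in the library labelled CTCF knockout (chromosome 15, 102987489 to 102987750) and 18 in the control (102987531 to 102987722). Between Hoxc6 and Hoxc5, 0.320 kb from the Hoxc5 span, it was 9 reads in the library labelled CTCF knockout (103013648 to 103013784) and 13 in the control (103013645 to 103013857). Neither list had a region in the Hoxc flanks. Requiring −log10 q ≥ 5 left 1 of these 2.

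**Figure D2:**
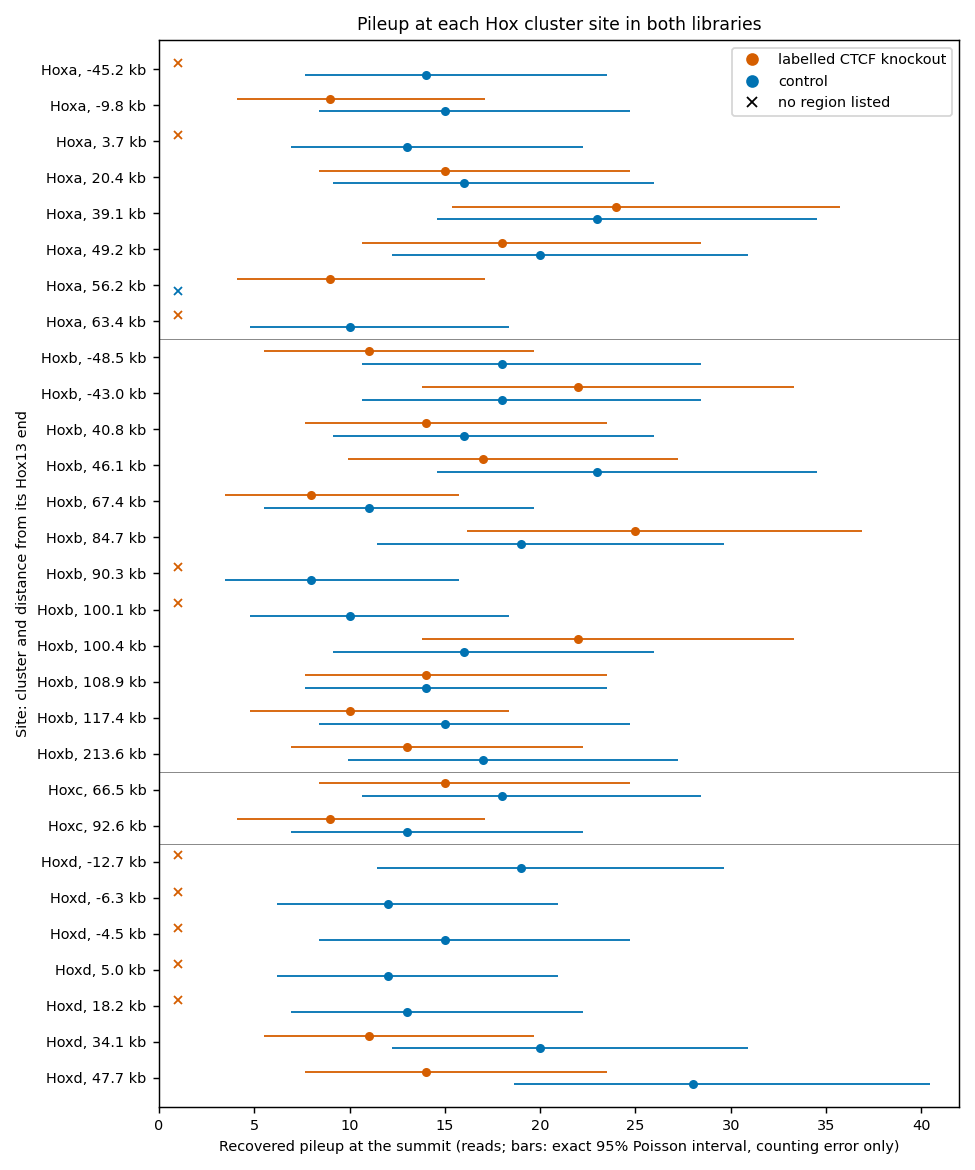
Recovered pileup (reads, x axis) at each site of the 4 clusters (rows, by cluster and by distance from the Hox13 end), with the library labelled CTCF knockout above the control in each row; points are pileups, bars are exact 95% Poisson intervals and crosses mark a library with no listed region. The intervals overlap in all 18 sites called in both libraries, and the first 5 Hoxd rows have a control point only.

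Over the 18 sites called in both libraries, pileup was higher in the library labelled CTCF knockout at 4, higher in the control at 13 and equal at 1. The Poisson intervals overlapped at all 18. Summed pileup was 271 reads (240 to 305) in the library labelled CTCF knockout and 320 reads (286 to 357) in the control, a ratio of 0.847, close to the 0.877 over all shared pairs of the series. By cluster the ratio was 0.892 at Hoxa, 0.934 at Hoxb, 0.774 at Hoxc and 0.521 at Hoxd. The summits of a pair lay a median of 17.5 bp apart (range 2 to 87 bp), against a median of 26 bp over the series.

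Of the regions within the outermost spans, 9 of 15 in the library labelled CTCF knockout and 11 of 20 in the control lay outside any Hox gene span. The low-numbered end was bare in both libraries at Hoxb and Hoxd, and so was the part of Hoxa around Hoxa2. The summit nearest to Hoxa2 lay 39.8 kb away in the library labelled CTCF knockout and 32.7 kb away in the control. At Hoxb the longest stretch of the span without a summit ran from within Hoxb3 to the Hoxb1 end, 56.5 kb in both libraries, and at Hoxd from within Hoxd3 to the Hoxd1 end, 49.2 kb in both. At Hoxc, which has no paralogue below Hoxc4, the longest stretch lay at the other end, 66.5 kb from the Hoxc13 end in both libraries. Of the 39 Hox genes, 25 had a region within 10 kb in the library labelled CTCF knockout, against 44.2% of all 21887 protein-coding genes, and 29 had one in the control, against 50.1%. Neighbouring Hox genes share regions under this rule, so the genes are not independent of each other, and the median span was 3.74 kb for Hox genes, against 17.2 kb over all protein-coding genes. Among the genes with no control region within 10 kb were Hoxa2, Hoxb1, Hoxb2, Hoxb13, Hoxc10, Hoxc11, Hoxc12, Hoxc13 and Hoxd1. Of the 29 genes with a control region, 4 had none that was called in the other library (Hoxa4, Hoxd11, Hoxd12 and Hoxd13), against 18.3% of all protein-coding genes with a control region.

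The number of regions for the window length stood out most at Hoxb. The Hoxb window of 274 kb held 10 regions in the library labelled CTCF knockout and 12 in the control. Among 6018 tiles of that length with the start of a protein-coding gene, 2.71% and 2.26% held as many or more, and the median tile held 2 in each library. The tiles were not matched to the clusters for the number of genes they hold. The Hoxa window held 5 and 7 regions, numbers reached by 12.4% and 7.94% of tiles of its length. The Hoxd window held 2 in the library labelled CTCF knockout, reached by 45.4% of tiles, and 7 in the control, reached by 7.14%. The Hoxc window held 2 in each, reached by 47.0% and 54.8%.

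**Figure D3:**
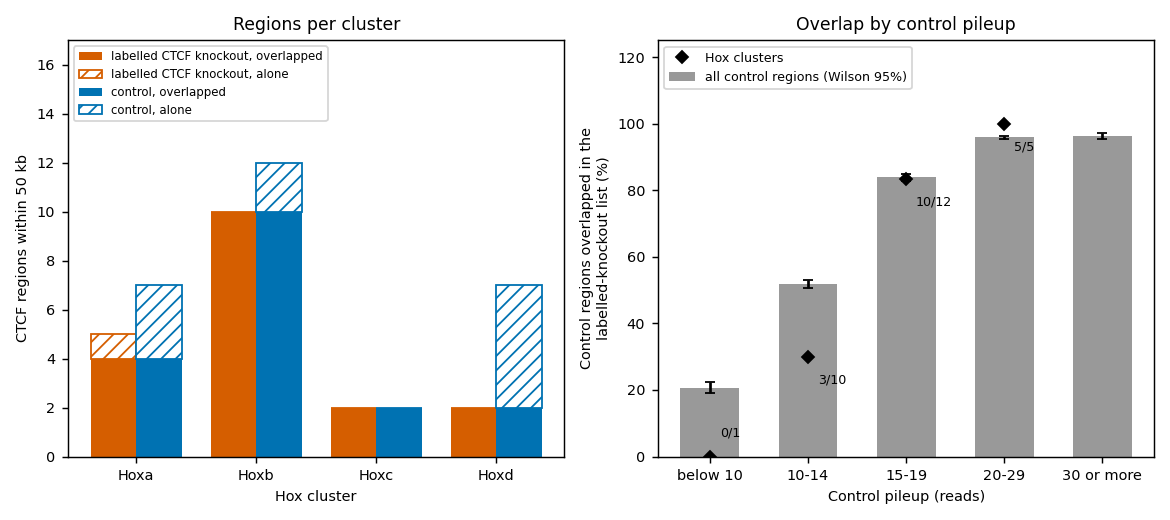
Left, CTCF regions (y axis, number) within 50 kb of each Hox cluster in the library labelled CTCF knockout and in the control, filled where a region of the other list overlaps and hatched where none does; right, percent of control regions overlapped in the other list by control pileup (x axis, reads), bars for the whole list with Wilson 95% intervals and diamonds for the Hox clusters with their counts. The hatched part is longest for the Hoxd control, 5 of 7, and the diamonds rise with pileup as the bars do.

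Whether a control region was called in the other library followed its pileup, at the Hox clusters as over the whole list. All 5 Hox control regions with 20 to 29 reads were called in both libraries, against 95.9% of the whole list. With 15 to 19 reads 10 of 12 were, against 83.8%, and the other 2 were the Evx2 region and a Gm31790 region beside Hoxd13. With 10 to 14 reads 3 of 10 were, against 51.8%, and the only region under 10 reads, within Hoxb8, was called in the control alone, against 20.7% called in both. No Hox control region reached 30 reads, where 96.4% of the whole list were called in both. Median control pileup was 17.5 reads for the Hox regions called in both libraries and 12.5 reads for those called in the control alone, and over the whole list 18 and 11 reads. The part of depth and pileup in the Hoxd values was not tested.

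Other gene clusters under the same 50 kb rule were the Iroquois clusters, with 11 regions in the library labelled CTCF knockout and 15 in the control, of which 8 were called in both, and the clustered protocadherins, with 16 and 21 regions, of which 13 control regions were called in both. Their shares were 53.3% (interval 30.1 to 75.2) and 61.9% (40.9 to 79.2), and their intervals overlap that of the Hox clusters.

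Genes that work with or upstream of Hox genes were counted within 10 kb of their spans. Near the Hox cofactors, the Pbx, Meis and Pknox homeodomain genes, 8 of 17 control regions were called in both libraries (47.1%, interval 26.2 to 69.0), against 69.0% over the list. Ranked by control fold enrichment, Pknox2 had the strongest region called in both, with a fold enrichment of 9.26 in the library labelled CTCF knockout and 18.4 in the control, each relative to its own background. It also had the strongest region called in the control alone (7.58), and held 9 of the 17 regions. Near Polycomb genes, which keep Hox genes silent, 15 of 21 were called in both (71.4%), the strongest near Phc1 (11.1 in the library labelled CTCF knockout and 12.7 in the control), and a region within Jarid2 (8.28) in the control alone. Near trithorax genes, which keep Hox genes active, 10 of 16 were called in both (62.5%), with Kmt2b (10.9 in the library labelled CTCF knockout and 12.1 in the control) and Kmt2d (6.48, control alone) as the strongest.

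Near other regulators of Hox genes 19 of 28 were called in both (67.9%). By control fold enrichment the strongest lay near Cdx2, a caudal homeobox activator of the clusters (11.2 in the library labelled CTCF knockout and 14.5 in the control), and a region within Maz, a zinc-finger gene, was called in the control alone (8.47). The intervals of these 4 lists cover the 69.0% of the whole list, that of the Hox cofactors only at its upper bound. Near Gsx1, Gsx2, Pdx1, Evx1 and Evx2, 0 of 4 control regions were called in both libraries (interval 0 to 49.0, which does not cover 69.0%). These 4 are the Evx1 and Evx2 flank regions already given, and Gsx1, Gsx2 and Pdx1 had no region within 10 kb in either list. The Cdx genes, which are ParaHox genes like Gsx1, Gsx2 and Pdx1, were counted among the regulators instead. Of their control regions, 1 of 1 near Cdx1 and 2 of 2 near Cdx2 were called in both libraries.

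The 50 kb limit touched few regions. The farthest members lay 48.5 kb from Hoxb13, within Ttll6, in both lists. The nearest region beyond the limit, at the Hoxb cluster, lay 60.7 kb away in the library labelled CTCF knockout (9 reads) and 60.6 kb away in the control (8 reads).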

How the data were processed

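CTCF ChIP-seq peak lists of 1 library labelled CTCF knockout and 1 control library were used, and the 2 input libraries were not analysed here. The submitters' processing notes name MACS2, SAMtools 0.1.19 and Bowtie2 2.2.6 with mm10, per the labels; no version, threshold or duplicate handling of MACS2 is stated in these sources. The authors called peaks separately for each library. Each deposited region has a summit, a fold enrichment, a −log10 p, a −log10 q and a score (10 times the −log10 q, cut to a whole number, in every region).

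The pileup was solved from fold enrichment, taken as (pileup + 1) / (background + 1), and the upper Poisson tail. Whole pileups matched −log10 p to within 0.001 in 100% of regions of either list. The method was also run on data simulated with the same formulas, which checks the solving step only. Gene spans came from RefSeq (GRCm38.p6, the mm10 assembly). Regions were matched by an overlap of at least 1 bp. The members and lists were chosen with earlier results of these data known. Hox genes and all regions inside the spans were named, except 1 gene that is not reported here, with the regions of each flank and up to 2 genes per other list. Alternatives were other thresholds, overlap rules, list lengths, windows and motifs. The work used scipy 1.17.1, numpy 2.4.6, matplotlib 3.10.9 and pandas 2.3.3 under Python 3.11.15.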

Additional observations from a re-analysis of the deposited data

How the results depend on the processing

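No paired analysis was possible because only 1 ChIP library was made per genotype. Across the 9 alternatives the Hox cluster regions numbered 14 to 22 in the library labelled CTCF knockout and 20 to 32 in the control, and the control regions called in both libraries ran from 14 of 28 under reciprocal overlap to 14 of 20 within the outermost gene spans, shares that all lay inside the counting interval. The number listed for the library labelled CTCF knockout alone was 0 with fold enrichment ≥ 5, 5 with the reciprocal overlap and 2 with lists of equal length, against 1. The number of Hox genes with the CTCF motif was 0 with the stricter and 7 with the looser letters, against 4. The looser letters are shorter but also require a last G that the main core lacks. The share called in both was 54.2% at the clusters and 71.6% over the whole control list with −log10 q ≥ 5, 61.5% and 71.3% with fold enrichment ≥ 5, 50% and 59.8% with reciprocal overlap, 64.3% and 65.2% by summit distance (100 bp), and 68.0% and 78.5% at equal list length, against 64.3% and 69.0%. The alternatives for the per-cluster counts and the whole-list share were chosen after seeing the data. Pileups of 8 to 28 reads limit what can be told apart at a site.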
